A study of Mus musculus with 4 samples.

Results

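Matrix metalloproteinases are zinc-dependent enzymes that cut the proteins around cells, and the tissue inhibitors of metalloproteinases (Timp proteins) block them by binding to the active site. Here 10 genes of this system were examined in 4T1 mouse breast cancer cells: the metalloproteinase genes *Mmp2*, *Mmp3*, *Mmp9*, *Mmp10*, *Mmp11*, *Mmp13* and *Mmp14*, and the inhibitor genes *Timp1*, *Timp2* and *Timp3*. They were chosen by name, and 9 of the 10 had a row among the 20197 genes of the table. *Timp3*, whose protein binds to the matrix itself, had no row and was not analysed here. In the text below, MMP stands for the mitochondrial membrane potential by which the cells were sorted, while the enzymes are called metalloproteinases and their genes are written in italics.

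The 4T1 line comes from a mouse mammary tumor, spreads to the lungs and models triple negative breast cancer. Wild-type 4T1 cells in culture were stained with MitoSpy Red at 20 nM, a dye that gathers in mitochondria of high membrane potential, and the brightest 5% (high MMP) and dimmest 5% (low MMP) were collected. RNA from 100000 cells was sequenced in each of 4 samples, 2 per gate, which carry the numbers 1 and 2. All cells were stained, trypsinized and sorted in the same way, and no unsorted sample was analysed here. The study counts its 2 replicates as independent experiments, and the sources do not say whether the high and low MMP samples of the same number came from 1 sort.

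Most metalloproteinases leave the cell as inactive proenzymes that are opened by other proteases, such as plasmin, furin or another metalloproteinase. The family is grouped by substrate and anchoring: gelatinases cut denatured collagen and the collagen of basement membranes, stromelysins cut a wide range of matrix proteins and activate other proenzymes, collagenases cut fibrillar collagen, and membrane-type enzymes stay on the cell surface. Tumor cells and the stromal and immune cells around them can all produce these enzymes, which are known for their part in invasion and in the release of growth factors from the matrix. In a culture of tumor cells, the transcripts of the tumor cells themselves are seen.

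The recovered depth was 22591970 to 26395015 reads per library. A normalized read is a read after the library was scaled to a total of 20000000. A difference is the mean of log2(normalized reads + 1) in high MMP cells minus that in low MMP cells, so that a positive value stands for more transcript in high MMP cells. The 5 epithelial markers were all present, at a summed 36200 to 48400 normalized reads in high MMP and 42100 to 48200 in low MMP cells. Of the macrophage markers 3 of 6 were in the table (72.0 to 147 in high, 105 to 156 in low MMP cells), of the endothelial markers 2 of 4 (3.35 to 6.06 and 1.74 to 6.20) and of the neutrophil markers 2 of 5 (12.6 to 36.4 and 1.74 to 5.31). The genes without a row were *Adgre1*, *Itgam*, *Lyz2*, *Kdr*, *Tek*, *S100a9*, *Elane* and *Mpo*. Those with a row were *Ptprc*, *Csf1r*, *Cd68*, *Pecam1*, *Cdh5*, *S100a8* and *Ly6g*. *Cd68*, at 79 to 171 reads per library, made up most of the macrophage sum. The fibroblast list, with 5 of 7 genes in the table and none for *Col3a1* and *Lum*, summed to 343 to 405 in high and 582 to 632 in low MMP cells. Most of this sum was *Pdgfra* (319, 363, 536 and 589 normalized reads in high MMP 1 and 2 and low MMP 1 and 2). *Pdgfra* (-0.72), *Col1a1* (-1.04, at 8 to 39 reads per library) and *Pdgfrb* (-0.52, at 8 to 12) had negative differences. *Col1a2* and *Dcn*, with few reads, had positive differences of 0.51 and 0.67. *Pdgfra* passed in DESeq2 (adjusted p 0.0399). *S100a8*, with 48, 13, 2 and 5 reads in the same order, passed in edgeR when the replicate number was blocked (adjusted p 0.00225). The other cell type markers did not pass in limma, in DESeq2, or in edgeR with no block or with the replicate number blocked. Of the 5 epithelial markers, *Krt14* was higher (0.32) and *Cdh1* lower (-0.34) in high MMP cells without overlap, beside 13.5% and 24.5% of all genes. Cell cycle markers were separated between the groups without overlap: 6 G2/M-phase markers summed to 62800 to 64000 in high and 31200 to 34600 in low MMP cells, and 5 S-phase markers to 10600 to 13600 and 18200 to 18300. None of them passed in limma (lowest adjusted p 0.472) or in edgeR with no block, while 6 of 6 G2/M-phase and 3 of 5 S-phase markers passed in DESeq2, and 5 of 6 and 3 of 5 in edgeR when the replicate number was blocked. The part that these shifts have in the values below was not tested, and in bulk samples fewer cells of a kind and less RNA per cell cannot be told apart.

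*Mmp3*, *Mmp10* and *Mmp13* lie in a cluster of metalloproteinase genes on chromosome 9. The 250 bases before the RefSeq start of these 3 genes are shown because *Mmp3* and *Mmp13* ranked the 4 libraries in the same order (below), with their neighbour *Mmp10* beside them, and those of *Timp1* and *Mmp11* because these were the 2 members whose groups did not overlap. RefSeq promoter sequences (GRCm38.p6) matched 8 of the 10 members, all but *Mmp2* and *Mmp9*. Each window ends at the RefSeq start, which for *Mmp11* (75932502) lies 3994 bases inside the gene as GENCODE draws it, so that the *Mmp11* window is upstream of the RefSeq start and within the GENCODE gene. Capitals mark the motifs searched on both strands, the AP-1 motif TGAGTCA, which reads TGACTCA on the other strand, the ETS-type motif AGGAAG and the TATA motif TATAAA, which do not overlap each other in these windows. Each run is read 5′ to 3′ on the strand of its gene.
Mmp3 (chr9:7445572-7445821, plus strand): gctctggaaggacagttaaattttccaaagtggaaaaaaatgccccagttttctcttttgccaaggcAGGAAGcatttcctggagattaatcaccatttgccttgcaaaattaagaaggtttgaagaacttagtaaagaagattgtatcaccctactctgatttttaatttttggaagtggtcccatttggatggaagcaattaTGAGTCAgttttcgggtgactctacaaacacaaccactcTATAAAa
Mmp13 (chr9:7272264-7272513, plus strand): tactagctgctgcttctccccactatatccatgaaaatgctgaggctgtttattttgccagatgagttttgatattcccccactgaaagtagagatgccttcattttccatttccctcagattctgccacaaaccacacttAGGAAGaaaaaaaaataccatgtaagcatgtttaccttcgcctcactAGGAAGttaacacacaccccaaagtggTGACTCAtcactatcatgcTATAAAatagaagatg
Mmp10 (chr9:7502092-7502341, plus strand): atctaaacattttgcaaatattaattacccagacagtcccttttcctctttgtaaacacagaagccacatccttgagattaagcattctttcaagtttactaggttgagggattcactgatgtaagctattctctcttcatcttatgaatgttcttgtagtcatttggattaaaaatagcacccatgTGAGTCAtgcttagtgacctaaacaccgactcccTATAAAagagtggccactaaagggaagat
Timp1 (chrX:20869916-20870165, plus strand): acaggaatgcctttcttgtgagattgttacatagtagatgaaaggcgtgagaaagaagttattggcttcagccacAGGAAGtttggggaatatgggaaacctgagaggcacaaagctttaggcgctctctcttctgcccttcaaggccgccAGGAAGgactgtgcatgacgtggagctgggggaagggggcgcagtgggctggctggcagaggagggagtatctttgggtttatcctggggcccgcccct
Mmp11 (chr10:75932503-75932752, minus strand): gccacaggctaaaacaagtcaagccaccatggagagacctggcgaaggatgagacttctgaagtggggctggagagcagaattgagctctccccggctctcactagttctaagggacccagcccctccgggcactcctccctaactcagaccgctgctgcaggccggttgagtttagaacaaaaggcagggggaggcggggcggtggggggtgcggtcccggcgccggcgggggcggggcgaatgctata

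The 3 genes of the cluster were the members with an AP-1 motif in this window, which began 46 bases before the RefSeq start in *Mmp3*, 63 in *Mmp10* and 35 in *Mmp13*. It was present in 4.46% of 32851 mouse promoters of the same length, and AP-1 is a factor known to act on metalloproteinase genes. The same 3 genes held the TATA motif, found in 12.4% of promoters. An ETS-type motif, found in 29.5% of promoters, was present in 5 of the 8 members matched, at 2 places each in *Mmp13* and *Timp1* and at 1 place in *Mmp3*, *Mmp14* and *Timp3*. None of the 3 motifs was in the *Mmp11* or *Timp2* window. The RefSeq start of *Timp2* lies 329 bases inside the gene as GENCODE draws it, so that its window, too, is within the GENCODE gene. A match describes these letters only, and no factor was measured at these sites.

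To see which enzymes and inhibitors 4T1 cells transcribe, levels were compared per length, as RPKM, the recovered reads divided by the exon length in kilobases and by the depth of the library in megareads. *Mmp9* had the highest level per length of the 9 members in every library, at 107 to 256 RPKM. The 2 inhibitors and stromelysin-1 followed: *Timp2* had 77.6 to 90.0, *Timp1* 65.4 to 89.7 and *Mmp3* 56.9 to 86.9 RPKM, and the ranges of these neighbours overlapped. *Mmp14* stood apart at 21.1 to 28.5 RPKM, below *Mmp3* and above *Mmp10* in each library. *Mmp10* had 7.12 to 8.84 RPKM, while *Mmp11* (3.91 to 5.15) and *Mmp13* (3.18 to 4.86) overlapped each other. *Mmp2* was lowest, at 0.0621 to 0.124 RPKM. The order of the medians was the same when the longest transcript was taken as the length, although the median of *Mmp14* then rose from 25.3 to 46.5 RPKM.

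**Figure D1:**
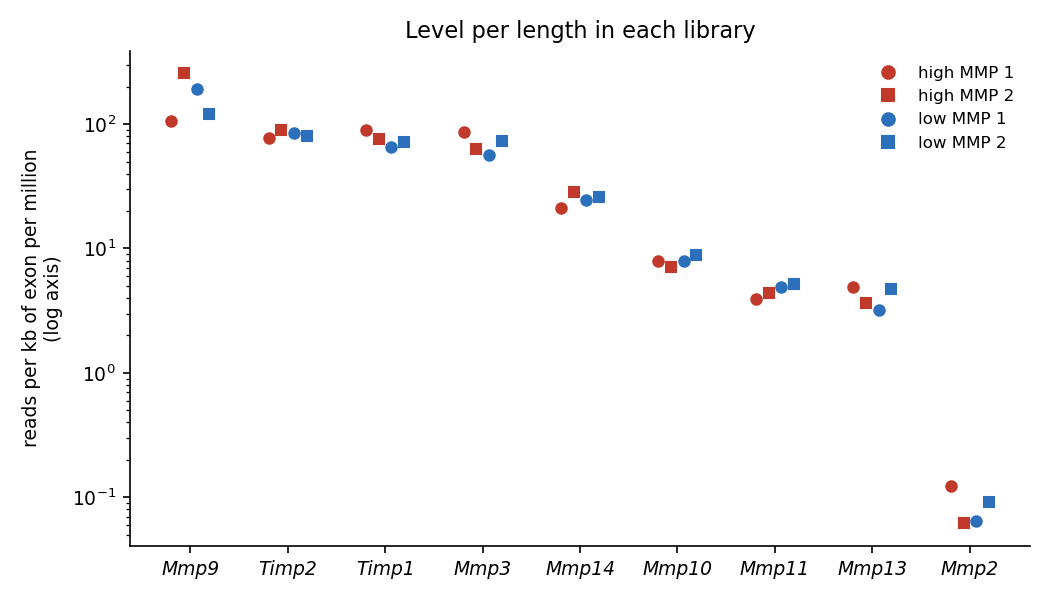
Level per length of the 9 members in each library, in RPKM on a log axis, ordered by median. Red marks high MMP and blue low MMP cells, circles replicate 1 and squares replicate 2. *Mmp9* is above all other members in each library and *Mmp2* is far below the rest.

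The summed transcript level of the metalloproteinase members varied mainly with *Mmp9*. The summed level of the 7 metalloproteinases was 232 RPKM in high MMP 1, 362 in high MMP 2, 290 in low MMP 1 and 239 in low MMP 2, and *Mmp9* made up 46.1%, 70.7%, 66.4% and 50.6% of it. The summed level of *Timp1* and *Timp2* was 167, 166, 151 and 151 RPKM in the same order. The ratio of these 2 transcript sums was therefore 1.38 and 2.18 for high MMP 1 and 2, and 1.93 and 1.58 for low MMP 1 and 2. It is not a balance of proteins, and *Timp3*, *Reck* and the other metalloproteinase genes are outside it. The groups overlapped in this ratio, with the extremes both in high MMP cells.

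*Mmp9* and *Mmp2* encode the gelatinases. *Mmp9* (ENSMUSG00000017737, GRCm38 chromosome 2, 164940780 to 164955850) was measured at 7548 normalized reads in high MMP 1, 18121 in high MMP 2, 13651 in low MMP 1 and 8565 in low MMP 2. Both the highest and the lowest library were thus high MMP cells. The high MMP libraries differed 2.40-fold and the low MMP libraries 1.59-fold, against 1.16-fold between the group means of 12835 ± 7476 and 11108 ± 3596 (SD, n = 2 each). The difference was 0.11 (SE 0.50, 95% interval -1.25 to 1.48), with an adjusted p of 0.994 in limma over all genes. Among the replicates 1 *Mmp9* was lower in high MMP cells by -0.85, and among the replicates 2 higher by 1.08. Of 4750 genes whose mean reached 1000 normalized reads, 19 (0.400%) had as wide a range from the lowest to the highest library as *Mmp9*, and the median range was 1.20-fold.

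*Mmp2* (ENSMUSG00000031740, chromosome 8, 92827291 to 92853420), whose proenzyme is activated at the cell surface by the *Mmp14* product together with *Timp2*, was close to the limit of detection. Only 11 and 5 reads were counted in high MMP 1 and 2, and 5 and 7 in low MMP 1 and 2. No difference was detectable at this depth (0.16, 95% interval -1.06 to 1.39, limma adjusted p 0.970). The transcripts for its activators were plentiful in the same libraries, as the values of *Mmp14* and *Timp2* below show.

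*Mmp3* and *Mmp10* encode stromelysins 1 and 2, which can activate the proenzymes of other metalloproteinases. *Mmp3* (ENSMUSG00000043613, chromosome 9, 7445822 to 7455975) had 3132 and 2249 normalized reads in high MMP 1 and 2, and 2049 and 2638 in low MMP 1 and 2. The highest library was high MMP 1 and the lowest low MMP 1, but the second replicates were in the opposite order, so the groups overlapped. The difference was 0.19 (SE 0.22, 95% interval -0.40 to 0.79, limma adjusted p 0.863), made of 0.61 among the replicates 1 and -0.23 among the replicates 2. The ratio of the *Mmp9* to the *Mmp3* level per length was 1.23 in high MMP 1, 4.10 in high MMP 2, 3.39 in low MMP 1 and 1.65 in low MMP 2.

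*Mmp10* (ENSMUSG00000047562, chromosome 9, 7502352 to 7510240) varied least among the metalloproteinase members, 1.24-fold from the lowest to the highest library. Its values were 274 and 245 normalized reads in high MMP 1 and 2, and 271 and 305 in low MMP 1 and 2. High MMP 1 lay just above low MMP 1, so the groups overlapped. The difference was -0.15 (SE 0.12, 95% interval -0.48 to 0.19, limma adjusted p 0.798). *Mmp3* and *Mmp10* are related copies, and how the counting treated reads that match both is not stated.

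*Mmp13* (ENSMUSG00000050578, chromosome 9, 7272514 to 7283331), the main collagenase of mice, had 260 and 197 normalized reads in high MMP 1 and 2, and 170 and 250 in low MMP 1 and 2. It ranked the libraries as *Mmp3* did, with high MMP 1 first, then low MMP 2, high MMP 2 and low MMP 1. This order was shared by 5.01% of 12902 genes whose mean reached 10 normalized reads. The difference was 0.13 (SE 0.26, 95% interval -0.57 to 0.83, limma adjusted p 0.948), from 0.61 among the replicates 1 and -0.35 among the replicates 2. The spread within each group, 1.32-fold in high and 1.47-fold in low MMP cells, was larger than the 1.09-fold between the group means.

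*Mmp11* (ENSMUSG00000000901, chromosome 10, 75923222 to 75936496), which encodes stromelysin-3, an enzyme activated inside the cell by furin, was the metalloproteinase member with groups that did not overlap. It had 217 and 245 normalized reads in high MMP 1 and 2, and 275 and 286 in low MMP 1 and 2, all low MMP values being above all high MMP values. The group means were 231 ± 19.6 for high MMP and 280 ± 8.02 for low MMP (SD, n = 2 each), 1.21-fold apart. The difference was -0.28 (SE 0.11, 95% interval -0.59 to 0.03) and was negative among the replicates 1 (-0.34) and 2 (-0.22). It did not pass in limma over all genes (adjusted p 0.558). Such a separation was common in the whole table, as 24.5% of all genes were lower in both high MMP libraries than in both low MMP libraries. *Mmp11* shares its locus with *Chchd10* on the opposite strand, and whether the counting used the strand is not stated.

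*Mmp14* (ENSMUSG00000000957, chromosome 14, 54431612 to 54445364) encodes the membrane-type metalloproteinase MT1-MMP, a surface collagenase. It had 2511 and 3396 normalized reads in high MMP 1 and 2, and 2920 and 3106 in low MMP 1 and 2. The low MMP values lay between the high MMP values. The difference was -0.04 (SE 0.17, 95% interval -0.51 to 0.42, limma adjusted p 0.986). Its sign was not stable: it was 0.01 in edgeR with no block and in DESeq2 on the recovered reads. It was -0.0071 in edgeR with the replicate number as a block.

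**Figure D2:**
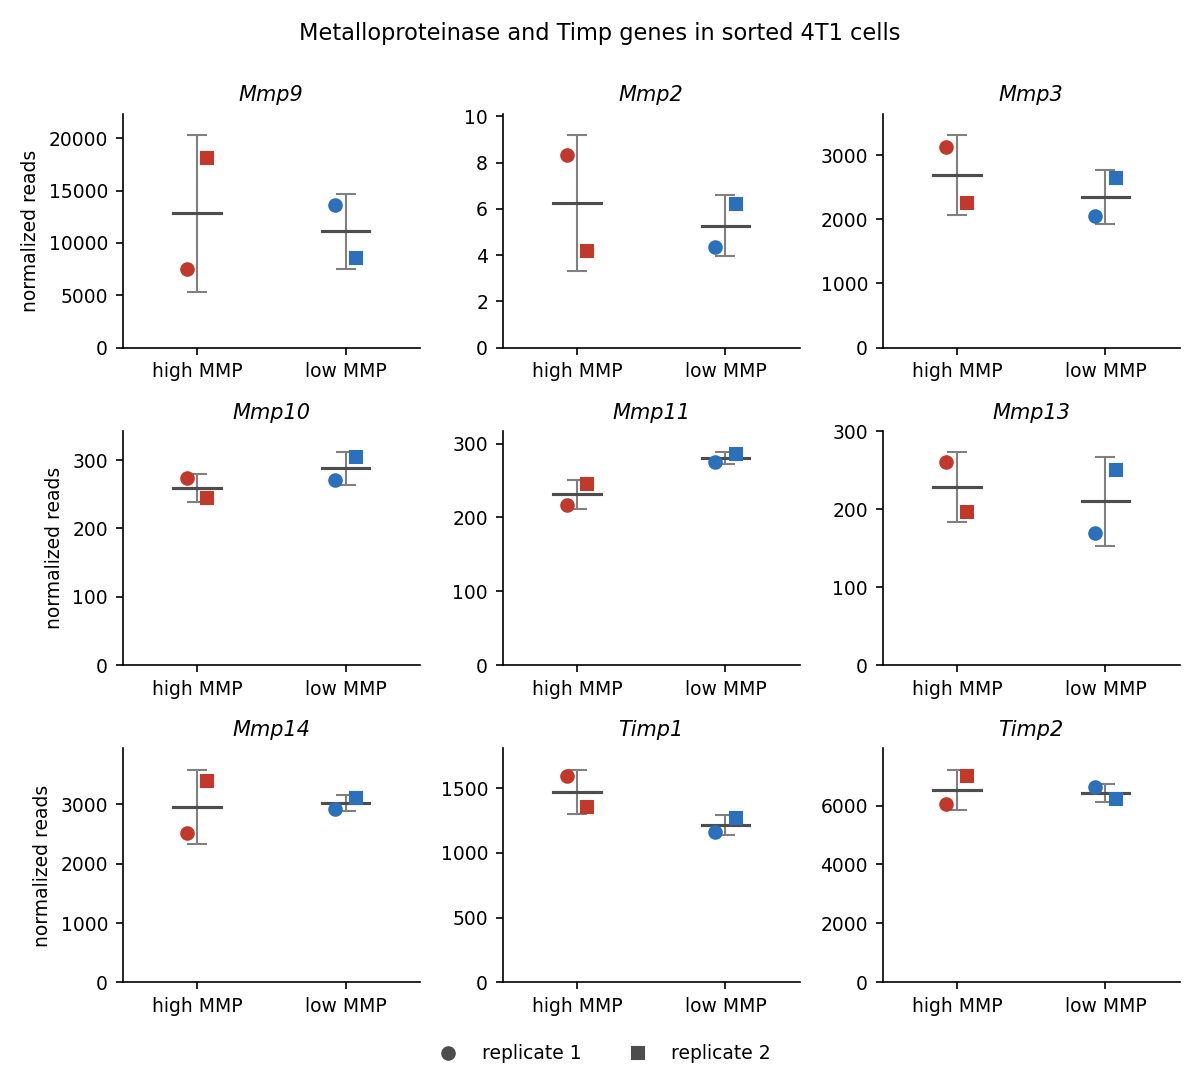
Normalized reads (each library scaled to 20000000) of the 9 members in high and low MMP cells, on linear axes that start at 0. Points are libraries, circles replicate 1 and squares replicate 2, and bars are the mean ± SD of n = 2. *Timp1* and *Mmp11* are the genes whose groups do not overlap, and the high MMP libraries of *Mmp9* are 7548 and 18121.

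*Timp1* (ENSMUSG00000001131, chromosome X, 20870166 to 20874735), a secreted inhibitor that also binds the proenzyme of *Mmp9*, was the member with higher values in both high MMP libraries. It had 1593 and 1354 normalized reads in high MMP 1 and 2, and 1162 and 1268 in low MMP 1 and 2. The group means were 1474 ± 169 and 1215 ± 74.7 (SD, n = 2 each), 1.21-fold apart, while the high MMP libraries differed 1.18-fold and the low MMP libraries 1.09-fold. The difference was 0.28 (SE 0.12, 95% interval -0.04 to 0.59), with 0.46 among the replicates 1 and 0.09 among the replicates 2. It did not pass in limma over all genes (adjusted p 0.567), in edgeR (0.689) or in DESeq2 (0.940). Among all genes 13.5% were higher in both high MMP libraries than in both low MMP libraries, and the 6 G2/M-phase markers summed above were among them. *Timp1* lies within *Syn1*, a gene on the opposite strand.

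*Timp2* (ENSMUSG00000017466, chromosome 11, 118301069 to 118355740), the inhibitor that also takes part in the activation of the *Mmp2* proenzyme, had the narrowest range of the members. Its values were 6047 and 7014 normalized reads in high MMP 1 and 2, and 6638 and 6209 in low MMP 1 and 2. Both low MMP libraries lay between the high MMP libraries. The difference was 0.02 (SE 0.12, 95% interval -0.29 to 0.33, limma adjusted p 0.994). The ratio of the *Timp2* to the *Timp1* level per length was 0.865 in high MMP 1, 1.18 in high MMP 2, 1.30 in low MMP 1 and 1.12 in low MMP 2. *Timp2* overlaps *Cep295nl* on the same strand, and how reads shared by both were counted is not stated.

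**Figure D3:**
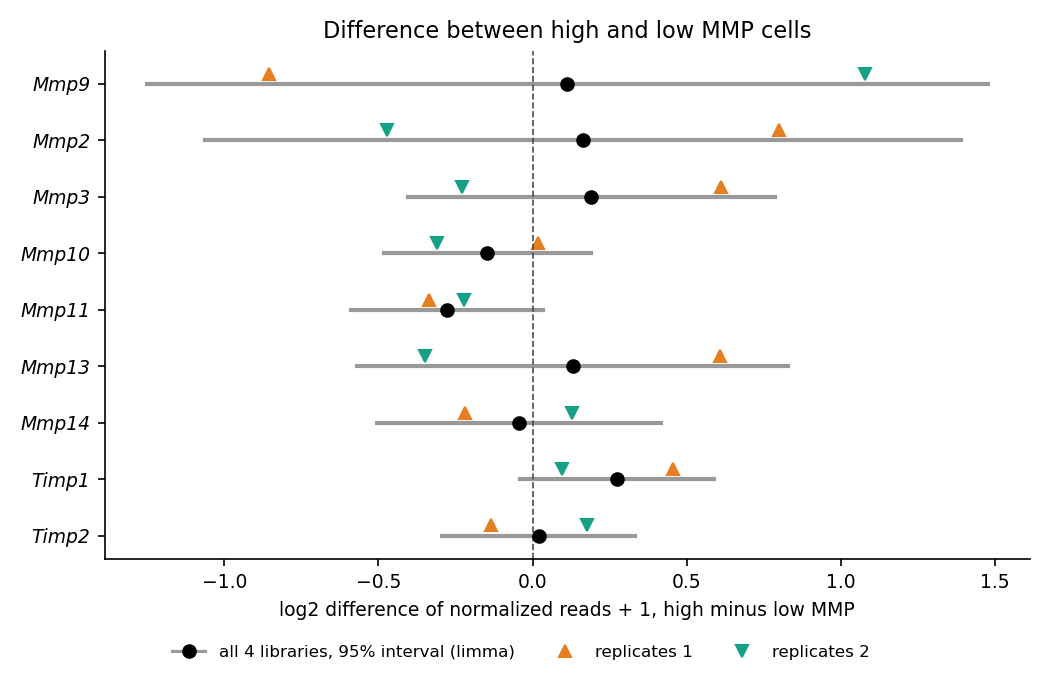
Log2 difference of normalized reads + 1 between high and low MMP cells for the 9 members. Black points are the difference over all 4 libraries with its 95% interval from limma in grey, and triangles the differences among the replicates 1 (up) and 2 (down). All 9 intervals include 0, and the triangles lie on the same side of 0 for *Mmp11* and *Timp1*.

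In all, 0 of the 9 members passed in limma at an adjusted p of 0.05, as did 0% of all genes, and 0 had an unadjusted p under 0.05, against 9.96% of all genes. In edgeR's quasi-likelihood test on the recovered reads 0 members passed (0% of all genes), with 1 member, *Timp1*, at an unadjusted p under 0.05. In DESeq2 0 members passed (0.985% of the genes given an adjusted p), with 0 at an unadjusted p under 0.05. *Mmp2* was given no adjusted p in DESeq2. The median difference of the 9 members was 0.11, beside -0.04 over all genes. Between the replicates 1 and the replicates 2 the difference had opposite signs for 7 of the 9 members, beside 10224 of the 20197 genes. The same number was not taken to mean a pair, so that this count depends on how the samples were numbered. The groups overlapped for 7 members, 1 was higher without overlap (13.5% of all genes) and 1 lower (24.5%). With 2 samples in each group the intervals leave room for changes of the size seen between replicates, so that a missing call does not show that the groups were alike.

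Next, the relatives and regulators of these enzymes were examined in 3 lists compiled from general knowledge. Of 48 genes, 36 were in the table, and 0 passed in limma (0 at an unadjusted p under 0.05). In edgeR with no block and in DESeq2 0 passed as well, with 1 and 2 genes at an unadjusted p under 0.05. Some genes of few reads, such as *Mmp1a* and *Mmp12*, were given no adjusted p in DESeq2. The median difference was -0.15, 10 genes having a positive and 26 a negative difference, beside 8359 and 11838 of all genes. The groups did not overlap for 8 of the 36 genes, 1 lying higher with high MMP and 7 lower, beside the 13.5% and 24.5% of all genes. Of these 7, *Mmp17* had 2 reads in every library, so that its separation came from the scaling, and *Spock2* had 5 to 7 reads.

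Of the other metalloproteinases, 10 of 16 were in the table, and *Timp4*, the remaining inhibitor, was not. *Mmp24* (ENSMUSG00000027612, chromosome 2, 155775342 to 155818366), a membrane-type metalloproteinase best known from the nervous system, had the largest difference of the list. It had 78.8 and 53.6 normalized reads in high MMP 1 and 2, and 16.6 and 39.8 in low MMP 1 and 2, from 104, 64, 19 and 45 reads. All high MMP values were above all low MMP values. The difference was 1.30 (SE 0.50, 95% interval -0.06 to 2.66), with 2.18 among the replicates 1 and 0.42 among the replicates 2. It did not pass in limma (adjusted p 0.523), edgeR with no block (0.689) or DESeq2 (0.382), but passed in edgeR with the replicate number as a block (0.0203), where 0.525% of all genes did. *Mmp24* overlaps *BC029722* on the opposite strand.

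The chromosome 9 cluster holds 3 further genes of the table. *Mmp1a* (7464141 to 7476869), a relative of the interstitial collagenase gene annotated as a polymorphic pseudogene and placed between *Mmp3* and *Mmp10*, had 27, 3, 11 and 16 reads in high MMP 1 and 2 and low MMP 1 and 2, a difference of -0.55 (SE 0.96, limma adjusted p 0.934). Its close copy *Mmp1b* had 46, 44, 32 and 47 reads, and how reads shared by the copies were counted is not stated. *Mmp12*, the macrophage elastase, had 2, 9, 4 and 5 reads. The values of *Mmp1a* and *Mmp12* were thus in the range where counting error is large. *Mmp15*, a membrane-type enzyme, had 36.4 and 50.2 normalized reads in high and 54.0 and 46.9 in low MMP cells (-0.23, SE 0.25, limma adjusted p 0.855).

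Among 16 regulators, 11 were in the table, of which 0 were higher and 2 lower without overlap, beside 13.5% and 24.5% of all genes. These 2 were *Pcsk6* and *Spock2*, the latter at 5 to 7 reads per library. *Furin*, the protease that opens the *Mmp11* and *Mmp14* proenzymes, had 2557 and 3259 normalized reads in high MMP 1 and 2 and 3137 and 3160 in low MMP 1 and 2 (-0.13, SE 0.14, limma adjusted p 0.857). Its relative *Pcsk6* had 127 and 165 in high and 178 and 188 in low MMP cells, which did not overlap (-0.33, SE 0.17, limma adjusted p 0.661). *Bsg*, a surface protein that induces metalloproteinases in neighbouring cells, had 7567 and 6550 in high and 6650 and 7411 in low MMP cells (0.00, SE 0.12, limma adjusted p 0.994). *Reck*, a membrane-anchored inhibitor, was low, at 56.1 and 79.5 in high and 79.3 and 65.5 in low MMP cells (-0.11, SE 0.25, limma adjusted p 0.958).

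*Lcn2* encodes a lipocalin that can bind the *Mmp9* enzyme. It had 3670 and 2424 normalized reads in high MMP 1 and 2 and 2243 and 2571 in low MMP 1 and 2, with high MMP 1 standing apart (0.31, SE 0.23, limma adjusted p 0.759). Its libraries had the order of *Mmp3* and *Mmp13*. *Lrp1*, an endocytic receptor that takes up metalloproteinases and their inhibitors, had 3429 and 7187 in high and 6364 and 4944 in low MMP cells (-0.18, SE 0.40, limma adjusted p 0.955). The libraries of *Lrp1* were in the order of *Mmp9*, as were those of *Timp2*, *Reck*, *Pcsk7* and *Adam9*. This order was held by 9.21% of those 12902 genes and by 6 of the 36 members and related genes among them (16.7%).

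The Adam and Adamts proteases are relatives with the same kind of zinc centre, of which Adam proteins shed surface receptors and ligands and Adamts proteins cut proteoglycans and other matrix proteins. All 15 genes were in the table, 12 with a negative and 3 with a positive difference, at a median of -0.19. The groups did not overlap for 4 of the 15, a share near the 24.5% of all genes that were lower without overlap, and all 4 were lower in high MMP cells: *Adam15* (-0.28), *Adam17* (-0.32), *Adamts7* (-0.40) and *Adamts10* (-0.49), of which the first 3 are named because of their values. *Adam17*, the main shedding enzyme for TNF and EGF-family ligands, had 1957 and 2626 normalized reads in high MMP 1 and 2 and 2933 and 2714 in low MMP 1 and 2 (SE 0.17, limma adjusted p 0.668). *Adamts10* had 243 and 371 in high and 430 and 415 in low MMP cells (SE 0.23, limma adjusted p 0.609).

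In these 4 genes high MMP 1 was the lowest library. *Adam12*, a protease linked to tumor growth, had 687 and 1283 normalized reads in high MMP 1 and 2 and 833 and 559 in low MMP 1 and 2 (0.46, SE 0.37, limma adjusted p 0.791), with high MMP 2 alone standing apart. *Adamts15* had 5, 14, 16 and 12 reads in high MMP 1 and 2 and low MMP 1 and 2 (-0.76, SE 0.58, limma adjusted p 0.776).

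**Figure D4:**
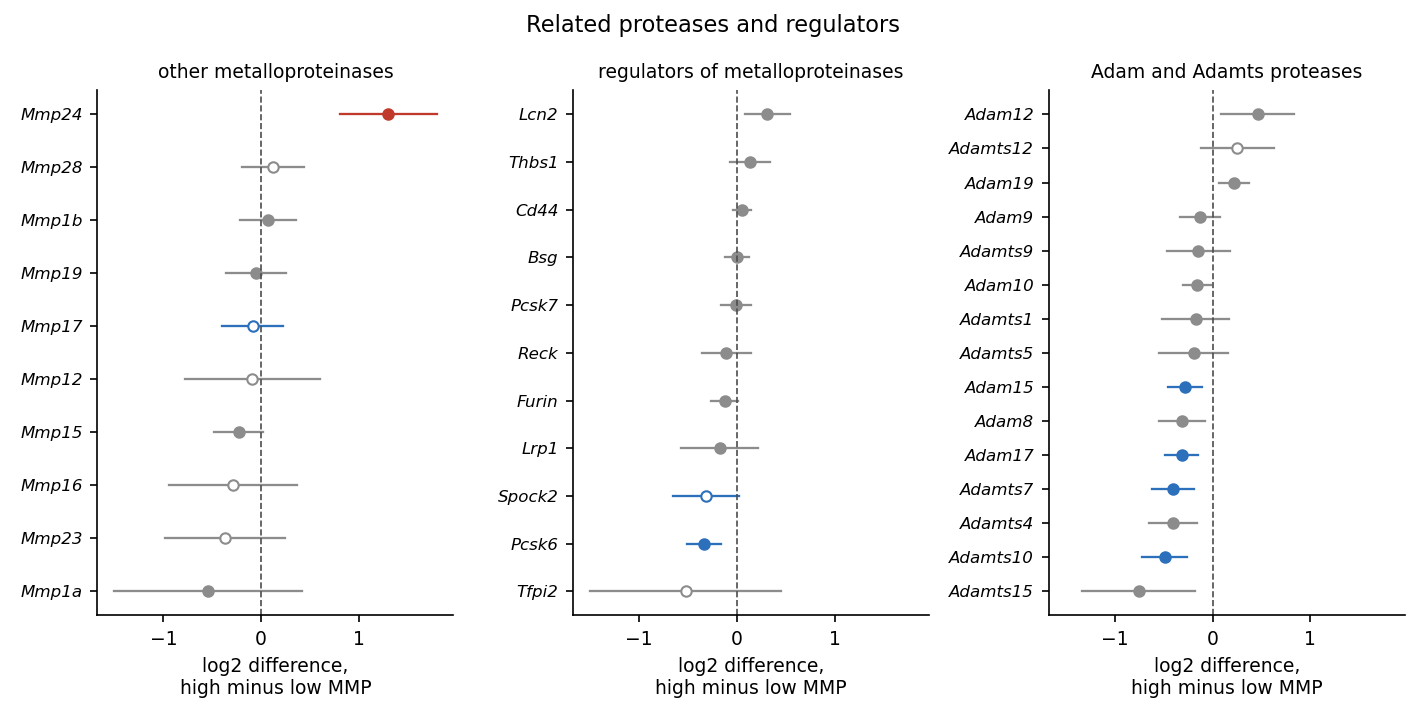
Log2 difference of normalized reads + 1, high minus low MMP, for the 36 related genes in the table, by list. Points are differences and lines ± 1 SE from limma. Red stands for higher and blue for lower without overlap of the groups, grey those that overlap, and open points genes with a mean under 10 normalized reads. *Mmp24* at 1.30 is the point in red, and 7 points are blue.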

How the data were processed

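RNA was sequenced in 2 high MMP and 2 low MMP samples of 4T1 cells (200 ng of RNA per stranded mRNA library), grouped by their titles. Per the labels and the study's methods, the authors used STAR for alignment (mouse, GRCm38/mm10) and gene quantification (the submitters' processing notes also name HTSeq), scaled each library to its total and kept genes expressed in at least 2 of the 4 samples. Versions, the annotation release, the strand setting and the treatment of multi-mapping reads are not given in the sources used here. The deposited values are thus a normalized signal per gene, each column summing to 20000000. All values (100% within 0.01) were whole multiples of 1 step per column, which gave the reads.

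The 20197 identifiers were matched to GENCODE M21 (19993 matched), which also gave positions and union exon lengths. log2(value + 1) was tested with limma 3.58.1 (eBayes with a trend, R 4.3.3), high against low MMP, with Benjamini-Hochberg adjustment over all genes at 0.05. On this scale the fold change of a gene of few reads is understated. On the recovered reads, DESeq2 1.42.0 and the quasi-likelihood test of edgeR 4.0.16, and on the values other pseudocounts, filters and scalings, the replicate number as a block and leaving out each library were alternatives.

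The replicates of a group differed by more than sampling noise (chi-square of 43.2 and 9.08 per gene), so none was a library deposited again. The members and lists were chosen with earlier results of these data known. Named are all members, *Reck*, *Furin*, *Bsg*, *Timp4* and, per list, up to 3 genes of the largest absolute difference whose mean reached 10. *Pdgfra*, *Pdgfrb*, *Col1a1*, *Col1a2*, *Dcn*, *Cd68*, *S100a8*, *Krt14* and *Cdh1* were named after their values were seen. So were *Mmp1b*, *Mmp12*, *Mmp17*, *Spock2*, *Pcsk7*, *Adam9*, *Adam15*, *Adam17* and *Adamts7*.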

Additional observations from a re-analysis of the deposited data

How the results depend on the processing

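No member passed under any of the alternatives, in limma, edgeR or DESeq2, with or without a block. *Mmp2* was given no adjusted p in DESeq2 and was removed by the filter at a mean of 10. The number of all genes called moved from 0 to 106 in edgeR with the replicate block and to 118 in DESeq2, and among the 36 related genes from 0 to 1 (*Mmp24*) in edgeR with the replicate block. The sources do not say whether samples of the same number came from 1 sort, and the number was not taken as a pairing: across genes, their deviations from the group mean correlated at -0.421. The replicate block in limma gave 0 calls. With crossed numbers as the block, chosen after seeing the data, limma called 0 genes and edgeR 733, of which 0 were members. Among the related genes, 4 were called in this edgeR fit: *Mmp24*, *Lcn2*, *Adam12* and *Adamts10*.

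The difference of *Mmp14*, -0.04, turned positive in edgeR with no block (0.0078) and DESeq2 (0.0111). It stayed negative in edgeR with the replicate block (-0.0071) and came to -0.0033 in limma after median-of-ratios rescaling. *Mmp10*, *Mmp11* and *Timp1* kept their sign without each library in turn (-0.23 to -0.06, -0.36 to -0.19 and 0.16 to 0.39), while the others changed it: *Mmp2* ranged from -0.26 to 0.59, *Mmp3* from -0.0475 to 0.43, *Mmp9* from -0.52 to 0.74, *Mmp13* from -0.15 to 0.41, *Mmp14* from -0.26 to 0.17 and *Timp2* from -0.0862 to 0.13. These signs turned without high MMP 1 (*Mmp2*, *Mmp3*, *Mmp13*, *Mmp14*), high MMP 2 (*Mmp9*, *Timp2*), low MMP 1 (*Mmp2*, *Mmp13*) and low MMP 2 (*Mmp9*, *Timp2*). A left-out library leaves its group with 1 sample, which is assumed to vary like the other group. Depth limits *Mmp2*, at 5 to 11 reads per library.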
